A study of Homo sapiens with 6 samples.

Results

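The BCL2 family was examined in RNA-seq libraries of Huh7 cells, a human hepatocellular carcinoma cell line, that overexpressed transketolase (TKT) or carried a vector control. The members were chosen by gene symbol, and all 10 had a row among the 22077 genes of the count table. BCL2, BCL2L1 and MCL1 encode pro-survival proteins, BAX and BAK1 encode effectors, and BCL2L11, BMF, BBC3, PMAIP1 and BID encode BH3-only proteins. TKT, an enzyme of the non-oxidative pentose phosphate pathway, was raised with an expression plasmid in 3 libraries (labelled OE, genotype over-expression), and the other 3 libraries came from vector control cells (labelled VC, genotype wt). No drug treatment or time point is named for either group. The labels spell the cell line Hu7, the Results of the study name Huh7 for this experiment and its Methods name HCCLM3, so the libraries were taken as Huh7. The labels number the samples of a group but do not say that they came from separate cultures, so p-values measure only the spread between these samples.

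Proteins of the BCL2 family control whether the outer mitochondrial membrane is permeabilized, the step that releases cytochrome c and starts the caspase cascade. Effectors form the pores, pro-survival proteins hold effectors and BH3-only proteins in check, and BH3-only proteins, several of them switched on by transcription under stress, bind the groove of pro-survival proteins through a short helix or engage the effectors directly. Liver cells are known to depend on BCL2L1 and MCL1 for survival, and hepatocyte-derived cells commonly hold little BCL2. Gene counts do not separate splice forms of a member, such as the long and short forms of BCL2L1 or the forms of BCL2L11, and no apoptosis was measured in these libraries. In separate flow cytometry assays, the study reported less apoptosis in Huh7 cells on TKT overexpression, also under lobaplatin. How the transcript levels below relate to that result was not tested.

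The helix that gives BH3-only proteins their name is built on a core of leucine, 3 variable residues, a small residue and aspartate, and its coding bases are shown because they are what the members of all 3 roles share. The coding stretches were read from the principal transcripts of GENCODE 29 on GRCh38, 33 bases (11 codons) on the coding strand from 5′ to 3′. Capitals mark the codon of the leucine and the codons of the small residue and the aspartate.
BMF: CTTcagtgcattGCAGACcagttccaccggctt
BBC3: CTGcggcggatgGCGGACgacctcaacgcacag
PMAIP1: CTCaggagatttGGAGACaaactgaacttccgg
BCL2L11: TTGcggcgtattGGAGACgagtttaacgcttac
BID: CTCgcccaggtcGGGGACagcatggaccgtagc
BCL2L1: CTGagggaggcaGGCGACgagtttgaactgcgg
BAX: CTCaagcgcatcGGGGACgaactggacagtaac
Each of the 10 members held 1 such core in its coding sequence. The small residue was glycine in 8 members and alanine in BMF and BBC3, and the pattern was widened to alanine after these 2 had shown no match. The BMF core lay in coding exon bases chr15:40104192-40104224 on the minus strand, and the PMAIP1 core in chr18:59902673-59902705 on the plus strand. PMAIP1 encoded the shortest protein of the 10, with 54 residues against 184 for BMF and 350 for MCL1.

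Sequencing depth lay between 30148788 and 37096156 counts per library, and TMM factors (library scaling factors of edgeR) between 0.990 and 1.02. TKT itself had 9402, 9549 and 9392 CPM (normalized counts, with library size corrected by these factors) in the TKT-overexpressing libraries and 497, 469 and 515 in the controls, a 19.1-fold difference (log2 fold change 4.26, SE 0.04, adjusted p = 1.15e-25, edgeR's quasi-likelihood test with Benjamini-Hochberg adjustment). All 6 markers of the hepatocyte lineage were present at 25.4 to 2750 FPKM (the authors' level scaled for gene length and depth), with a summed level of 5505 to 5633 in TKT-overexpressing and 5347 to 5464 in control libraries. Leukocyte markers stayed at or under 0.0284 FPKM, fibroblast markers at or under 0.381, and of the endothelial markers PECAM1 reached 2.62 FPKM while VWF was near 0. HNF4A, a hepatocyte transcription factor among those markers, was lower on TKT overexpression (log2 fold change -0.15, adjusted p = 0.00720, edgeR), and its part in the results was not tested. Chi-square per degree of freedom between 2 libraries was 7.24 to 9.99 within a group and 31.1 to 38.6 between groups, so no library looked like a copy of another. TKT was among the genes summed, so the between-group values include the difference raised by the plasmid itself.

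Levels of the members spanned a wide range, with BCL2L1 at the top and BCL2 at the bottom. Per length, BCL2L1 had a mean of 136 FPKM over the 6 libraries, BAX 49.4, MCL1 37.4, BAK1 27.4 and BID 16.4. PMAIP1 followed at 4.94 FPKM, BMF at 3.89, BCL2L11 at 2.38, BBC3 at 2.35 and BCL2 at 0.0291. Neighbours in this order kept apart in every library of a group, except BCL2L11 and BBC3, whose ranges overlapped in both groups, and BMF and BCL2L11, whose ranges overlapped in the controls.

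**Figure D1:**
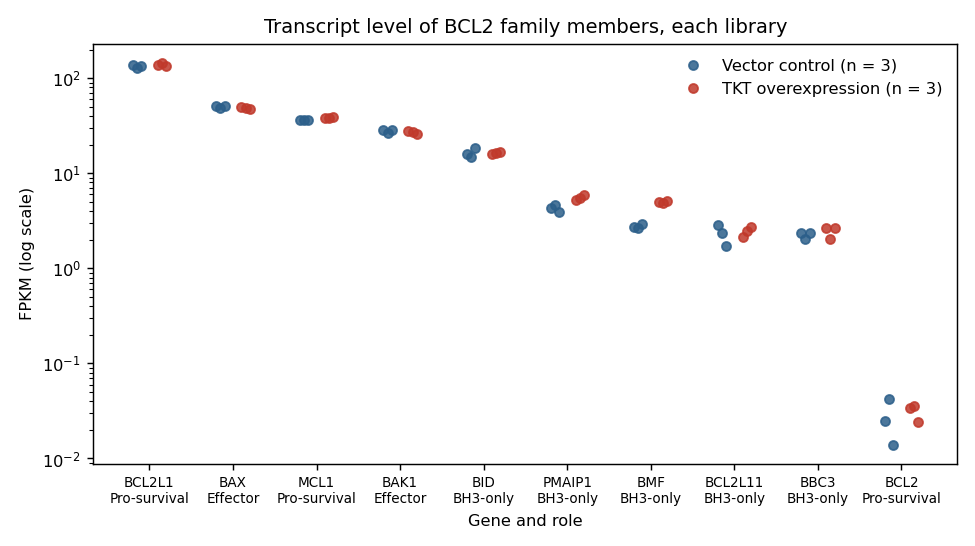
FPKM of the 10 members (log scale), 1 point per library, with vector control in blue and TKT overexpression in red (n = 3 each), ordered by the mean over all 6 libraries. BCL2L1 leads at 136 FPKM and BCL2 trails at 0.0291, and BMF is the member with the widest gap between its red and blue points on the log axis.

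All 10 members passed the expression filter, which needs a count of about 10 in at least 3 libraries. In TKT-overexpressing cells 2 members were higher at an adjusted p under 0.05, both BH3-only (BMF and PMAIP1), none was lower and 8 did not pass the test. Of all 14162 genes tested, 10.6% passed at this threshold, 5.69% as higher and 4.94% as lower. At an unadjusted p under 0.05, edgeR, DESeq2 and limma each gave 3 members as higher (BMF, PMAIP1 and MCL1) and 0 as lower, whereas edgeR gave 23.8% of all genes at this threshold, 11.8% as higher and 12% as lower. With a minimum absolute log2 fold change of 1 added, no member was called, beside 0.727% of all genes. The groups did not overlap for 3 members, MCL1, BMF and PMAIP1, all with the TKT-overexpressing libraries above the controls. Over all genes tested, 28% showed no overlap in either direction. In 1999 of the 14162 genes every TKT-overexpressing library was above every control. The median log2 fold change was 0.08 over the 10 members and 0.00 over all genes tested.

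**Figure D2:**
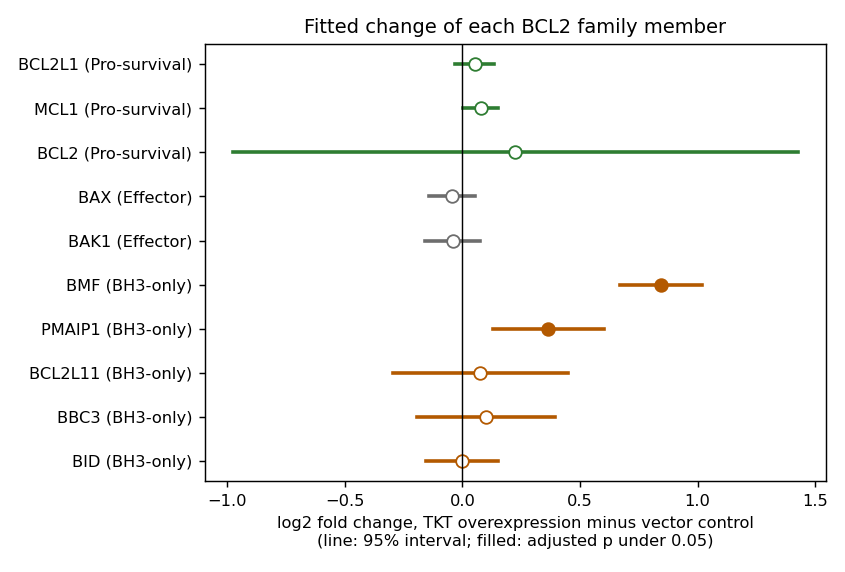
Fitted log2 fold change of each member (TKT overexpression minus vector control, 3 libraries each) from edgeR, with its 95% interval as a line, grouped by role. Filled points passed an adjusted p of 0.05: BMF at 0.85 and PMAIP1 at 0.37. The interval of BCL2, from -0.98 to 1.43, is the widest.

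Among the pro-survival members none passed the test, and the means of the most abundant member differed by a few percent. BCL2L1 encodes BCL-xL, the main guardian of the outer mitochondrial membrane in hepatocytes. It measured 587, 615 and 552 CPM in TKT-overexpressing libraries and 581, 541 and 569 CPM in controls. The ranges overlapped, with the lowest control below and the highest TKT-overexpressing library above all others. Its level was 3.68% higher on TKT overexpression (95% interval from -2.18 to 9.88%, log2 fold change 0.05, SE 0.04, adjusted p = 0.485, edgeR), so that a rise of 10% or more lies outside the interval. The gene (chr20:31664452-31723989, minus strand) shares 1424 exon bases with the antisense gene ABALON, and counting by strand is not stated in the sources used here.

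MCL1 encodes a short-lived pro-survival protein that binds BAK1 and most BH3-only proteins. It had 238, 241 and 241 CPM on TKT overexpression and 228, 226 and 228 CPM in controls. Each TKT-overexpressing library exceeded each control, and replicates lay closer together than for any other member, with a coefficient of variation of 0.758% on TKT overexpression and 0.657% in controls. The difference was 5.54% (95% interval 0.218 to 11.1%, log2 fold change 0.08, SE 0.04), with an unadjusted p of 0.0419 and an adjusted p of 0.189 (edgeR), so it did not pass the test across all genes.

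BCL2, the founding member of the family, was close to absent. It was counted 16, 14 and 10 times in TKT-overexpressing libraries and 10, 16 and 6 times in controls, which is 0.397 ± 0.0808 CPM against 0.341 ± 0.175 CPM (SD, n = 3 each). The ranges overlapped. With so few reads the 95% interval of the difference ran from -49.1 to 169% (log2 fold change 0.23, SE 0.58, adjusted p = 0.867, edgeR), and no difference was detectable at this depth. BCL2L1 took 78.3 ± 0.905% of the summed pro-survival FPKM on TKT overexpression and 78.6 ± 0.512% in controls (SD, n = 3).

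Both effectors stood slightly under their control means, and neither passed the test. BAX, which moves from the cytosol into the membrane when activated, had 129, 128 and 122 CPM in TKT-overexpressing libraries and 133, 124 and 134 CPM in controls. The ranges overlapped, and the difference was -3.04% (95% interval -9.36 to 3.73%, log2 fold change -0.04, SE 0.05, adjusted p = 0.633, edgeR). BAK1, the effector that resides in the membrane, had 62.4, 61.2 and 56.1 CPM against 63.4, 58.2 and 63.3 CPM. Here too the ranges overlapped, and the difference was -2.86% (95% interval -10.5 to 5.46%, log2 fold change -0.04, SE 0.06, adjusted p = 0.729, edgeR). Per length, BAX was present at 1.81 ± 0.0445 times the level of BAK1 on TKT overexpression and 1.81 ± 0.0144 times in controls (SD, n = 3), so the balance of the effectors differed by less than the spread between replicates.

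BMF (BCL2-modifying factor) carried the largest difference of the family. Its protein is a BH3-only activator of death that is held at the cytoskeleton in healthy cells and released by detachment and other stress. BMF was counted 1023, 824 and 911 times in TKT-overexpressing libraries and 473, 441 and 539 times in controls. In CPM these were 27.6, 26.7 and 27.7 against 15.1, 14.5 and 16.1. The lowest TKT-overexpressing library stood well above the highest control, and the coefficient of variation between replicates was 2.00% on TKT overexpression and 5.16% in controls. BMF rose 1.80-fold (95% interval 1.59 to 2.03, log2 fold change 0.85, SE 0.08, adjusted p = 3.59e-07, edgeR) and ranked 51 by p among the 14162 genes. An exact two-sided permutation test of its CPM gave p = 0.1, the smallest that 3 libraries against 3 allow. In bulk RNA, more transcript per cell and more cells with the transcript cannot be told apart.

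PMAIP1 encodes NOXA, a small BH3-only protein that binds MCL1 and promotes its degradation, and a known target of the integrated stress response. It was counted 430, 373 and 425 times on TKT overexpression and 302, 309 and 290 times in controls, or 11.6, 12.1 and 12.9 CPM against 9.61, 10.2 and 8.64 CPM. All TKT-overexpressing libraries were above all controls, with a gap about as wide as the spread within a group. PMAIP1 rose 1.29-fold (95% interval 1.09 to 1.52, log2 fold change 0.37, SE 0.11, adjusted p = 0.0414, edgeR). This call rested close on the threshold. It was lost without TKT-overexpressing library 1 (adjusted p = 0.0783), 2 (0.0773) or 3 (0.155) and without control library 1 (0.103) or 3 (0.165), and kept without control library 2 (0.0371). It was also lost with DESeq2 (0.0516) and with a replicate block (0.107), while the log2 fold change stayed between 0.30 and 0.42.

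**Figure D3:**
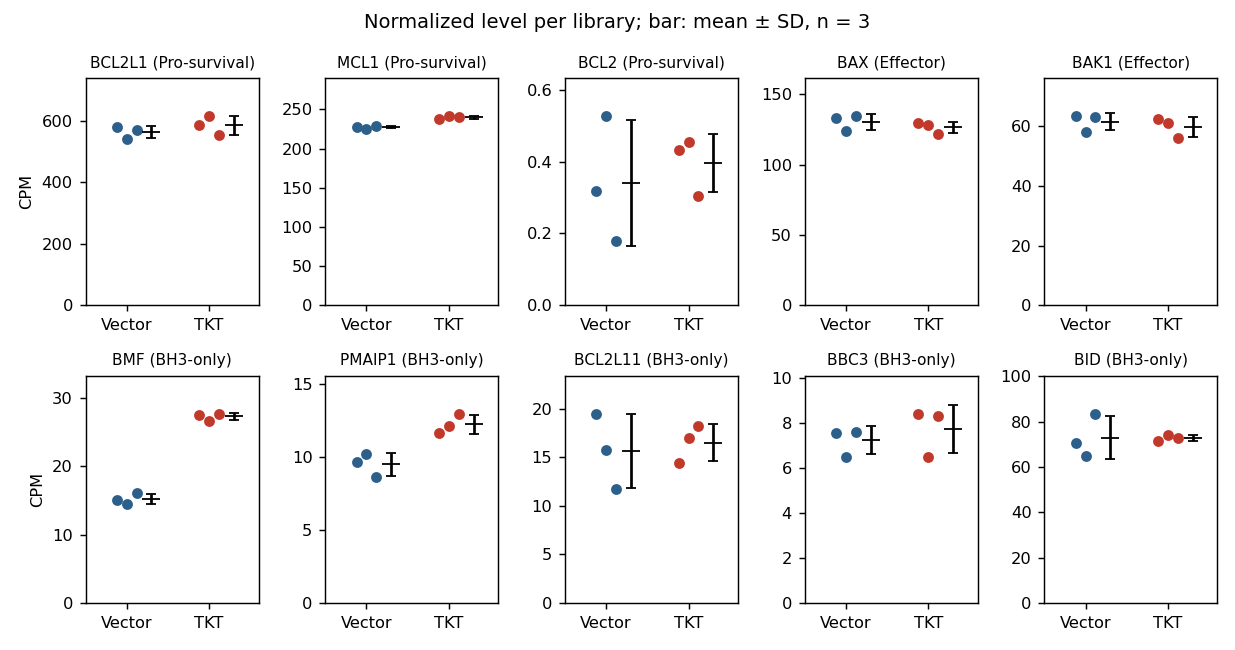
CPM of each member in each library (points; vector control in blue, TKT overexpression in red) with the mean ± SD (black, n = 3), every axis starting at 0. BMF separates the groups widely (27.3 against 15.2 CPM), PMAIP1 by less (12.2 against 9.47 CPM), MCL1 narrowly with tight replicates, and the other 7 members overlap.

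The other 3 BH3-only members did not pass the test. BCL2L11 encodes BIM, which binds all pro-survival proteins and is degraded after phosphorylation by ERK. It had 14.4, 17.0 and 18.2 CPM on TKT overexpression and 19.5, 15.7 and 11.8 CPM in controls. The highest and the lowest value of the 6 were both controls, 1.65-fold apart. The fitted difference was 5.46% (95% interval -18.6 to 36.7%, log2 fold change 0.08, SE 0.17, adjusted p = 0.842, edgeR), an interval too wide to tell a small rise from a small fall. The gene shares 727 exon bases with MIR4435-2HG on the opposite strand, a long non-coding RNA whose own log2 fold change was 0.21 (SE 0.11, adjusted p = 0.284, edgeR).

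BBC3 encodes PUMA, which binds every pro-survival protein. It had 8.42, 6.52 and 8.33 CPM on TKT overexpression and 7.57, 6.52 and 7.63 CPM in controls. The second library of each group was the low one, and the ranges overlapped (difference 7.17%, 95% interval -12.6 to 31.3%, adjusted p = 0.740, edgeR). BID links death receptors to mitochondria once caspase-8 has cleaved it, so its activity turns on cleavage more than on transcript. It had 71.5, 74.1 and 72.9 CPM against 70.5, 65.0 and 83.3 CPM, and the controls enclosed the TKT-overexpressing libraries. The means differed by -0.183% (95% interval -10.2 to 11.0%, log2 fold change -0.00, SE 0.07, adjusted p = 0.989, edgeR).

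The pro-survival and the BH3-only members were then set side by side, as a description and without a test, since the lists were chosen with results known. The median log2 fold change was 0.08 over the 3 pro-survival members (0.05 to 0.23), -0.04 over the 2 effectors and 0.10 over the 5 BH3-only members (-0.00 to 0.85), so the medians of the pro-survival and BH3-only members were 0.02 apart. Without 1 library at a time this difference lay between -0.05 (without TKT-overexpressing library 3) and 0.18 (without control library 1). BMF, at 0.85, was the only member over 0.40.

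The transcript of each role was also summed per library. Pro-survival members summed to 177, 183 and 172 FPKM on TKT overexpression and 173, 166 and 170 FPKM in controls, with overlapping ranges. The effectors summed to 77.9, 76.0 and 73.3 FPKM against 79.3, 74.5 and 79.7 FPKM, also overlapping. The BH3-only members summed to 31.2, 31.3 and 33.2 FPKM against 28.1, 26.5 and 29.6 FPKM, a ratio of 1.14 with every TKT-overexpressing library above every control. Without BMF the same sums were 26.1, 26.5 and 28.0 FPKM against 25.4, 23.8 and 26.7 FPKM, and the ranges overlapped. Set against the pro-survival sum, BH3-only transcript was 18.0 ± 1.12% on TKT overexpression and 16.5 ± 0.734% in controls (SD, n = 3), with overlapping ranges.

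The make-up of the BH3-only transcript also differed between the groups. BMF contributed 15.7 ± 0.407% of the BH3-only FPKM in TKT-overexpressing libraries and 9.90 ± 0.178% in controls (SD, n = 3), and these ranges did not overlap. BMF and PMAIP1 together contributed 33.2 ± 0.336% against 25.3 ± 2.32%. BMF and this pair were picked because both genes had passed the test as higher. Their larger shares, and the ratio of BMF to BCL2L11 below, are therefore no separate result. BID contributed 51.6 ± 1.25% against 58.3 ± 4.12%, again without overlap, although its own level did not pass the test. These shares sum to a whole, so a larger share of BMF makes the others smaller. BMF exceeded BCL2L11 by 2.37, 1.95 and 1.89 times per length on TKT overexpression, and stood at 0.957, 1.14 and 1.69 times BCL2L11 in controls.

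Promoter sequence of the 2 members that passed the test is shown as context, since no binding or chromatin data bear on it. RefSeq (GRCh38.p14) held promoters for 9 of the 10 members, MCL1 being the one not matched, and the 250 bases before each start were searched on both strands for CACGTG (E-box), TGANTCA (AP-1), TGACG (core of the cAMP-response element) and GGGCGG (GC box). The printed stretches end where the GENCODE 29 gene begins, and capitals mark the motif letters found, as read on the printed strand.
BMF, chr15:40108893-40109129, minus strand: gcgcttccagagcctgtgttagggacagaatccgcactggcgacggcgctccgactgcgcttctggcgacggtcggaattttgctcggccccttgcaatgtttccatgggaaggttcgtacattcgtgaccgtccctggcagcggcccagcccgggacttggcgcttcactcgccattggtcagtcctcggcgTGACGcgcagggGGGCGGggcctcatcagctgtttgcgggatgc
PMAIP1, chr18:59899746-59899947, plus strand: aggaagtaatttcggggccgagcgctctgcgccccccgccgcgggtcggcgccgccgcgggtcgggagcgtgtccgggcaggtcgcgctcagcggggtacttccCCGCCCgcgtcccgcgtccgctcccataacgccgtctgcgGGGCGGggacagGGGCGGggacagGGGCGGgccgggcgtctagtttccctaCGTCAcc
The BMF stretch held 1 TGACG, from base -57 to -53 before the start, and 1 GGGCGG, from -45 to -40. The second annotated BMF start held none of the 4 motifs. The PMAIP1 stretch held 1 TGACG on the opposite strand (printed CGTCA), from -55 to -51, and 4 GGGCGG, of which the one at -146 to -141 is printed as CCGCCC. Neither held CACGTG or TGANTCA, which 6.34% and 6.57% of all 35116 promoters held, beside 21.2% with TGACG and 42.6% with GGGCGG. The letters TGACG also occurred at a start of BCL2, BCL2L1 and BAX, none of which passed the test. GGGCGG also occurred at a start of BAX, BAK1, BCL2L11 (3) and BID (4 at its first start), and none of these passed either. The share of G and C in the window was 65.2% for the first BMF start and 72.8% for PMAIP1, against a median of 58.0% over all promoters.

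The nearest tested protein-coding genes on each side of BMF on chromosome 15 did not pass the test. BUB1B, 52131 bases away, had a log2 fold change of -0.08 (SE 0.06, adjusted p = 0.456, edgeR) and SRP14, 48702 bases away on the other side, one of 0.03 (SE 0.04, adjusted p = 0.688, edgeR). These neighbours were chosen by position among protein-coding genes that passed the expression filter, as were those of PMAIP1, which lie much farther off. Genes outside this filter were not considered, so others may lie closer. LMAN1, 539986 bases from PMAIP1, had a log2 fold change of 0.04 (adjusted p = 0.650, edgeR). RNF152, 1903757 bases away on the other side, had one of 0.59 (SE 0.54, adjusted p = 0.570, edgeR). BMF also shares 461 exon bases with the antisense gene BMF-AS1.

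Around the family, 9 further lists of apoptosis genes held 60 genes, of which 53 were tested, 4 were higher, 2 were lower and 47 did not pass. The 11.3% called was close to the 10.6% of all genes. Their median log2 fold change was -0.01, and that of all genes tested was 0.00. The relatives of the members by sequence did not pass. BCL2L2, the other tested pro-survival gene, was at 6.01 FPKM on TKT overexpression and 6.08 FPKM in controls (log2 fold change -0.02). Among other effectors and BCL2-like genes 0 of 3 passed in edgeR, and DESeq2 called BCL2L13. In edgeR 2 had an unadjusted p under 0.05 (BCL2L13 and BOK, both positive, named after their values were seen), beside 11.8% of all genes as higher. BCL2L12, the highest of them, had 31.3 FPKM against 33.1 FPKM. Of the 5 other BH3-only genes none passed, none had an unadjusted p under 0.05 in edgeR, DESeq2 or limma, and BNIP3, the highest, had 64.7 FPKM against 62.5 FPKM.

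No gene passed in edgeR in the next 4 lists. Of the 10 genes of mitochondrial release and the apoptosome, 0 passed, 8 had a negative fold change and 2 an unadjusted p under 0.05 in edgeR (APAF1 and VDAC3, both negative), beside 12% of all genes. For 5 of the 10 (APAF1, VDAC3, DIABLO, AIFM1 and ENDOG) every TKT-overexpressing library was below every control, beside 13.9% of all genes. These 5 are named after their values were seen, at adjusted p between 0.101 and 0.467 in edgeR. At an unadjusted p under 0.05, DESeq2 gave 3 and limma 2 as negative, none past the adjusted threshold. VDAC1, the most abundant, was at 101 FPKM against 102 FPKM. No caspase of 6 passed in edgeR, and 2 had an unadjusted p under 0.05, beside 23.8% of all genes (11.8% higher and 12% lower). CASP6, the highest at 14.2 FPKM against 16.3 FPKM, had a log2 fold change of -0.21 (adjusted p = 0.0559, edgeR), and limma on FPKM called it lower. Of 7 death receptor genes and adaptors 0 passed in edgeR, DESeq2 or limma (unadjusted, 1 positive and 1 negative in each), and of 7 genes for the turnover of MCL1 and BIM 0 passed in any of them (1 positive). The highest of each were TNFRSF10B, at 45.0 FPKM against 41.6 FPKM, and MARCHF5, at 19.9 FPKM against 19.1 FPKM.

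Of 5 tested inhibitor of apoptosis genes, BIRC3 was higher and BIRC5 lower, beside 5.69% of all genes higher and 4.94% lower. BIRC3 encodes cIAP2, a ubiquitin ligase of TNF receptor signalling, and had 4.80 ± 0.489 CPM on TKT overexpression and 3.10 ± 0.473 CPM in controls (log2 fold change 0.63, SE 0.19, adjusted p = 0.0330, edgeR). BIRC5 encodes survivin, which also serves in mitosis, and had 177 ± 9.90 CPM against 195 ± 7.64 CPM (log2 fold change -0.14, SE 0.05, adjusted p = 0.0477, edgeR). Both calls were lost without TKT-overexpressing library 1 or 3 or without control library 1 or 3, at adjusted p up to 0.148 for BIRC3 and 0.215 for BIRC5. They were also lost with a replicate block (0.0809 for BIRC3 and 0.171 for BIRC5) and with limma on FPKM at either pseudocount (0.0781 or more for BIRC3, 0.101 or more for BIRC5), and that of BIRC5 with upper-quartile factors (0.0795). BIRC5 was also the most abundant of the list.

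Of the 9 transcription factors known to act on BH3-only genes, JUN, MYC and DDIT3 were higher and E2F1 was lower. Of all genes, 5.69% were higher and 4.94% lower at this threshold. JUN, a subunit of AP-1, had 170, 175 and 168 CPM on TKT overexpression and 101, 97.5 and 102 CPM in controls. The groups lay far apart, and JUN rose 1.70-fold (log2 fold change 0.77, SE 0.04, adjusted p = 3.96e-11, edgeR). MYC rose by a smaller amount, 15.9%, with 123 ± 0.686 CPM against 106 ± 5.24 CPM (log2 fold change 0.21, SE 0.05, adjusted p = 0.00530, edgeR). The study reported from qRT-PCR that TKT left c-Myc mRNA unchanged, and the reason for this difference was not tested. DDIT3 (CHOP), a factor of the unfolded protein response, had 11.1 ± 0.791 CPM against 8.58 ± 0.375 CPM (log2 fold change 0.38, SE 0.12, adjusted p = 0.0417, edgeR), a call lost without any 1 of the 6 libraries, at adjusted p between 0.0682 and 0.171, and also with DESeq2 (0.0531), without the expression filter (0.0522) and with a replicate block (0.104). E2F1 had 75.6 ± 2.12 CPM against 87.0 ± 5.26 CPM (log2 fold change -0.20, SE 0.05, adjusted p = 0.0178, edgeR), lost without TKT-overexpressing library 1 (0.101) or control library 1 (0.133), with the block (0.0903) and with limma on log2(FPKM + 1) (0.0502). ATF4, the most abundant at 236 FPKM against 223 FPKM, did not pass (adjusted p = 0.188), nor did FOXO3 (log2 fold change 0.04, adjusted p = 0.812), chosen after its values were seen. JUN and MYC were past the threshold in each of 15 alternatives.

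BMF kept its call in all 15 processing alternatives, with a log2 fold change of 0.67 to 0.89 and an adjusted p of 3.37e-04 or less. PMAIP1 kept its direction in all 15 and its call in 8, with an adjusted p of 0.0319 to 0.165. No other member passed in any alternative.

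**Figure D4:**
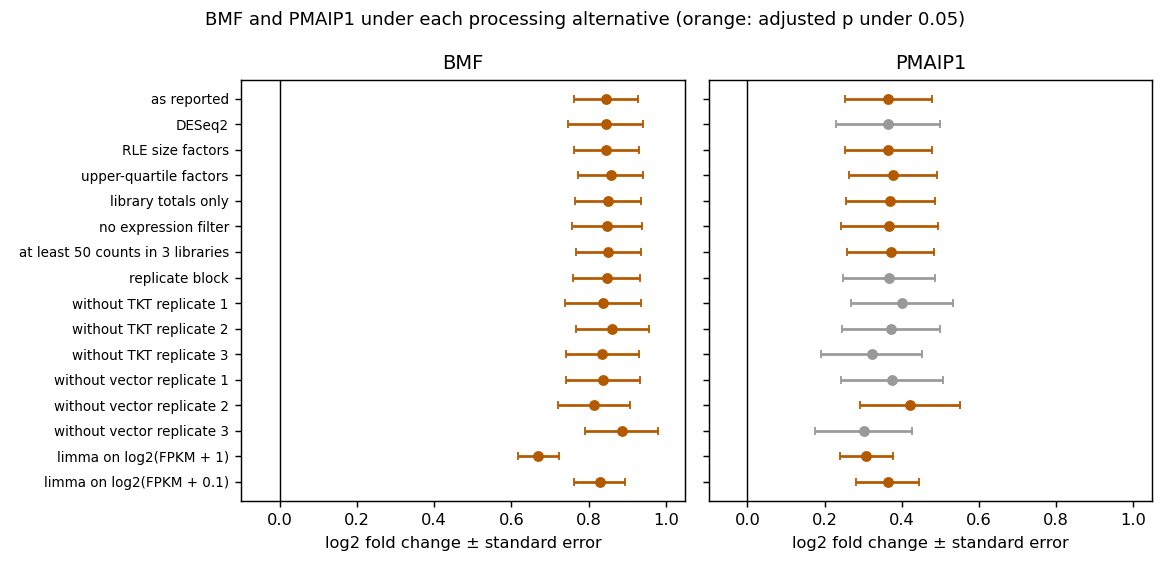
Log2 fold change ± SE of BMF (left) and PMAIP1 (right) as reported and under 15 alternatives of scaling, filter, test and samples, in orange where the adjusted p is under 0.05. BMF is orange throughout at 0.67 to 0.89, and PMAIP1 turns grey in 7 rows while its estimate stays between 0.30 and 0.42.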

How the data were processed

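Per the labels and Methods, total RNA was sequenced as paired ends. The authors trimmed reads with fastp 0.22.0, aligned them to hg38 with HISAT2 2.1.0 and counted them with featureCounts (fastp and HISAT2 versions and the build from the submitters' processing notes). They deposited raw counts per gene symbol and FPKM values. Annotation and strand options are not given in the sources used here.

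Counts went into edgeR 4.0.16 under R 4.3.3 (filterByExpr with groups, minimum count 10, TMM, robust quasi-likelihood test), and p-values were adjusted by Benjamini-Hochberg over 14162 tested genes. Intervals (95%) come from the fitted value and its standard error. The common biological coefficient of variation was 0.113, and precision comes from 3 libraries per group. FPKM were used to compare levels between genes. The study's methods name DESeq2, which was run as an alternative (1.42.0), with limma 3.58.1 on log2(FPKM + 1) and log2(FPKM + 0.1), other scalings and filters, a replicate block and each library left out. The scripts were tested on simulated data.

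The members, lists and tests were chosen with earlier results of these data known. Named are the members, TKT, called genes of the lists and the most abundant gene of each list, and others as stated. BH3 cores were searched in coding sequence translated from the GENCODE 29 annotation. Protein sequences were not used here, and some genes of the lists are not reported here.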

Additional observations from a re-analysis of the deposited data

How the results depend on the processing

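Under 15 alternatives per gene, the count of members higher (2 as reported) was 1 with DESeq2 (PMAIP1 at an adjusted p of 0.0516), 1 with the replicate block (PMAIP1 at 0.107), 1 at an adjusted p under 0.01, 0 with the added threshold of 1 on the absolute log2 fold change, and 1 to 2 with a library left out. The count of members lower was 0 throughout. All genes called (1505 as reported) numbered 697 with the block, 827 and 826 with limma on log2(FPKM + 1) and log2(FPKM + 0.1), 679 at 0.01, 103 with the fold threshold, and 791 (without TKT-overexpressing library 1) to 1586 with a library left out. In the wider lists, genes higher (4) were 2 with the block, 2 at 0.01, 0 with the fold threshold and 2 to 5 with a library left out. Genes lower (2) were 1 with upper-quartile factors, 1 with limma on log2(FPKM + 1), 0 with the block, 0 at 0.01, 0 with the fold threshold and 0 to 3 with a library left out. With a library left out, the median of the BH3-only members (0.10) was 0.046 to 0.26 and its difference from the pro-survival median (0.02) was -0.045 to 0.18. The cause of these changes was not tested.

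Signs that turned all belonged to members that did not pass in any of 15 alternatives (13 for BCL2). BID turned to 0.0099 (upper-quartile factors), 0.0026 (library totals), 0.0036 (at least 50 counts in 3 libraries), 0.0049 (block), and 0.0091 and 0.0099 (limma with pseudocounts 1 and 0.1). With a library left out, BID lay between -0.077 and 0.10, BAK1 between -0.080 and 0.0029, BCL2 between -0.090 and 0.67, and BCL2L11 between -0.094 and 0.26.

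Same-numbered libraries did not deviate together: the pairing correlations over 11286 genes were -0.00, -0.10 and 0.04, so the block is only an alternative. No TKT-overexpressing library correlated best with the control of its own number. Other scalings moved the median of all genes by at most 0.01 on the log2 scale. Depth limits BCL2, with 6 to 16 counts per library. Without the expression filter its log2 fold change was 0.22 (SE 0.65, adjusted p = 0.898, edgeR). Isoforms, protein and phosphorylation are outside these data.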
